A study of Mus musculus with 2 samples.

Results

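The leptin receptor signalling genes described here are 8 of the 32285 genes of the count matrix, taken by symbol, with earlier results of these data known. They are Lepr, Leprot, Jak2, Stat3, Socs3, Ptpn1, Ptpn2 and Sh2b1, and each symbol matched 1 gene. The data are single-nucleus RNA-seq of the hypothalamus of male wild-type C57BL/6J mice aged 10 to 12 weeks, with no treatment named in the labels. Nuclei stained for NeuN, which marks neurons, were sorted, labelled with hashtag antibodies to nuclear pore proteins and pooled into 1 gene expression library with 1 matching hashtag library. The labels give the tissue as ARC (the arcuate nucleus), whereas the hashtags are named ARC and PVH in the deposited feature list, so nuclei are grouped below by hashtag. The mice were pooled and no nucleus can be traced to a mouse, so there is no replicate and no test. Intervals are exact 95% intervals that cover counting error only.

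Leptin is made by fat cells and lowers food intake by acting on the leptin receptor in the brain, most of all on hypothalamic neurons. The receptor (Lepr) has no kinase of its own and uses the kinase JAK2, which phosphorylates the receptor and lets the transcription factor STAT3 dock, dimerize and enter the nucleus. STAT3 raises transcription of Socs3, whose protein blocks the receptor and JAK2 in a feedback loop. The phosphatases encoded by Ptpn1 and Ptpn2 also dampen the signal, the adaptor SH2B1 strengthens JAK2 signalling, and the protein of Leprot, the gene that lies next to Lepr, lowers the amount of receptor at the cell surface. AGRP neurons, which drive feeding, and POMC neurons, which restrain it, are the best known leptin targets of the arcuate nucleus.

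In GENCODE M21 on GRCm38, Leprot lies at chr4:101647718-101659364 and Lepr at chr4:101717404-101815352, both on the plus strand and 58.0 kb apart. Jak2 lies at chr19:29251828-29313080 and Ptpn1 at chr2:167932057-167979385 on the plus strand. Stat3 at chr11:100885098-100939540, Socs3 at chr11:117966079-117970047 and Sh2b1 at chr7:126466994-126475424 are on the minus strand. The position of Ptpn2 is not given here. Only the span of Stat3 overlaps another gene, Stat5a on the opposite strand, so the assignment of Stat3 UMIs depends on strand-aware counting. The counts are per gene and do not separate the isoforms of Lepr.

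The promoters of the neighbours Lepr and Leprot and of Stat3 and Socs3 are shown, because Stat3 and Socs3 were the members whose levels over the clusters were most like those of Lepr, and Leprot was the least like it. Each sequence holds 250 bases before and 50 after the transcription start, 5′ to 3′ on the strand of the gene, from RefSeq on GRCm38.p6. The windows are chr4:101717157-101717456 for Lepr (the first of its 2 starts), chr4:101647533-101647832 for Leprot, chr11:100939491-100939790 for Stat3 and chr11:117969317-117969616 for Socs3. Capitals mark matches to TTCNNNGAA, the palindrome that STAT dimers are known to bind.
Lepr: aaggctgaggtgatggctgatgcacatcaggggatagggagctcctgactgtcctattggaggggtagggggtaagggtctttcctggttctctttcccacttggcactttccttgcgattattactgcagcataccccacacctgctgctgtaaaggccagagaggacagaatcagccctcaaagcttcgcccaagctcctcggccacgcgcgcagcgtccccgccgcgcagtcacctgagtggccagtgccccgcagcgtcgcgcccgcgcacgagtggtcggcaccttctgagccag
Leprot: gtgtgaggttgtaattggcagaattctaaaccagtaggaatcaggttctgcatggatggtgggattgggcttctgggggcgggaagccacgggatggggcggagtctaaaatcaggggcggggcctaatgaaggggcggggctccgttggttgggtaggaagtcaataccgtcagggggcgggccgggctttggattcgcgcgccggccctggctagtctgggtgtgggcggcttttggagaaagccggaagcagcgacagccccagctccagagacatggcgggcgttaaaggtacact
Stat3: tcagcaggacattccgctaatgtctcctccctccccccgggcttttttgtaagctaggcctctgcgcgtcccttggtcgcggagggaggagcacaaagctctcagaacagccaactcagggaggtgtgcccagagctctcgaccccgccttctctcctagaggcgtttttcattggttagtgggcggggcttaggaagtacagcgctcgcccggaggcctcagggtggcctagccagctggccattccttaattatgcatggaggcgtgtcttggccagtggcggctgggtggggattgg
Socs3: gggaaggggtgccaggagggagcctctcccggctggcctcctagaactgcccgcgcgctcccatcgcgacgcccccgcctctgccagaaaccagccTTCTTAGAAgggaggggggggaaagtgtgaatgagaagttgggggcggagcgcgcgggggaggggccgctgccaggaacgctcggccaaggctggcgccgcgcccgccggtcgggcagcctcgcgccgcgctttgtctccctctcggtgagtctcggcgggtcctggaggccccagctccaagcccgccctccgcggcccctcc

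RefSeq promoters were found for 7 of the 8 genes, 9 promoters in all, and the promoter of Socs3 was the one with a match to TTCNNNGAA. The match, TTCTTAGAA, begins at position -154 from the RefSeq start, which lies inside the GENCODE span of the gene. Over all 32851 promoters of this length, 8.30% hold at least 1 such match. GGGCGG, the letters of a GC box, was counted on both strands, and its matches do not overlap the TTCNNNGAA match, and 35.7% of all promoters hold it. It occurred 6 times in the Leprot promoter, 3 times in Jak2, 2 times each in Socs3 and Ptpn1, 1 time in Stat3, 1 time at the second start of Lepr, and not in the first Lepr window or the Sh2b1 windows. The G and C content was 61.3% for Lepr, 60.7% for Leprot and Stat3 and 73.3% for Socs3, against a median of 52.7% over all promoters. A match is a description of letters and not of a bound site.

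After filters on genes, counts and mitochondrial reads, 10170 of 11409 barcodes were kept. The ARC hashtag held 3737 neurons in 13 clusters with 19404825 UMIs, and the PVH hashtag 3074 neurons in 14 clusters with 16732895 UMIs, at median depths of 4833 and 5039 UMIs per nucleus. The 8 genes were left out of the clustering, so no cluster was defined by them. Clusters are called X-like where their marker lists allowed it, and 1 ARC cluster of 30 nuclei was non-neuronal. The hashtags separated Sim1, a marker of PVH neurons, at 10.6 CPM (UMIs of a gene per 1000000 UMIs) in ARC and 109 CPM in PVH neurons, but neuropeptide transcripts crossed them. Agrp was found in every cluster, at 98.2 to 283 CPM in ARC and 123 to 181 CPM in PVH clusters, so a low level of an abundant transcript does not show that a cluster expresses it. In the lowest cluster for Lepr, PVH cluster 11, 2 UMIs gave 2.51 CPM (0.303 to 9.05), with UMIs in 1.87% of nuclei at a median depth of 7088 UMIs. That interval reaches the levels of many of the low clusters, so they cannot be told from such a background.

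Lepr was high in 3 of the 27 neuron clusters and low in the other 24. In the AGRP-like cluster (713 nuclei) it stood at 111 CPM (101 to 122), with UMIs in 44.6% of nuclei (40.9 to 48.3) at a median depth of 5023. In the POMC-like cluster (285 nuclei) it stood at 109 CPM (93.8 to 126), with UMIs in 36.8% of nuclei at a median depth of 5609. The third was ARC cluster 10, 194 nuclei led by Tbx19, Pirt and Slc15a5 that carried no class name, at 93.5 CPM (75.3 to 115) and UMIs in 25.8% of nuclei. Of the POMC markers, Cartpt and Sntb1 passed 1.5-fold in it, and the POMC list summed to 349 CPM against a median of 240 CPM over ARC clusters. Pomc and Prdm12 did not pass, and Pomc itself stood at 98.7 CPM against a median of 103 CPM. The GABA transporter gene Slc32a1 stood at 58.6 CPM and the glutamate transporter gene Slc17a6 at 16.4 CPM in cluster 10. In the POMC-like cluster they stood at 14.4 and 60.5 CPM. The Lepr intervals of these 3 Lepr-high clusters overlap one another and lie above those of every other neuron cluster. Once each nucleus was thinned to 1000 UMIs, the shares of nuclei with a Lepr UMI were 10.9%, 7.72% and 9.79%.

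Among the other ARC clusters, ARC cluster 2 came next with 26.3 CPM (20.6 to 33.1). Its leading genes are Sox10 and Gjc3, and the 5 oligodendrocyte markers summed to 285 CPM in it against a median of 67.7 CPM over ARC clusters. Nuclei were sorted for NeuN, although 30 non-neuronal ARC nuclei were also found, and the source of the oligodendrocyte markers was not tested. The cluster was also the highest of the ARC neuron clusters in Bnc2, a transcription factor gene, at 6.13 CPM (3.57 to 9.82) against at most 1.85 CPM in the others. It carried markers of PVH neurons too, with Sim1 at 60.6 CPM (51.8 to 70.5) against a median of 1.91 CPM over ARC clusters, and Sim1, Crh and Avp past 1.5-fold. It stayed without a class name because 5 markers of a non-neuronal list passed as well. At Leiden resolution 1.2 a SIM1-like cluster of 43 ARC nuclei, led by Ebf3, Sim1 and Pou3f2, stood apart. The cluster led by Sox10 then held 498 nuclei, against 544 at the main resolution. Whether the SIM1-like nuclei came from ARC cluster 2 is not given here. The part of any of these markers in the Lepr level of ARC cluster 2 was not tested. ARC cluster 7 followed at 18.3 CPM, the VMH-like cluster at 14.7, the KNDy-like cluster, which holds markers of kisspeptin neurons, at 14.3, the SST-like cluster at 11.8, the GHRH-like cluster at 11.1, ARC clusters 13, 5 and 6 at 8.69, 8.40 and 6.33, and the dopaminergic-like cluster at 6.40 CPM. The 14 PVH clusters ran from 2.51 to 19.7 CPM with a median of 7.80. The highest of them, PVH cluster 2, is again the one with the most oligodendrocyte marker RNA (354 CPM against a median of 58.6), and PVH clusters 5 and 9 followed at 17.7 and 14.5 CPM and PVH cluster 6, which is SIM1-like, at 13.0 CPM. In the whole order of 27 clusters, the only neighbours whose intervals do not overlap are ARC cluster 10 and ARC cluster 2.

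**Figure D1:**
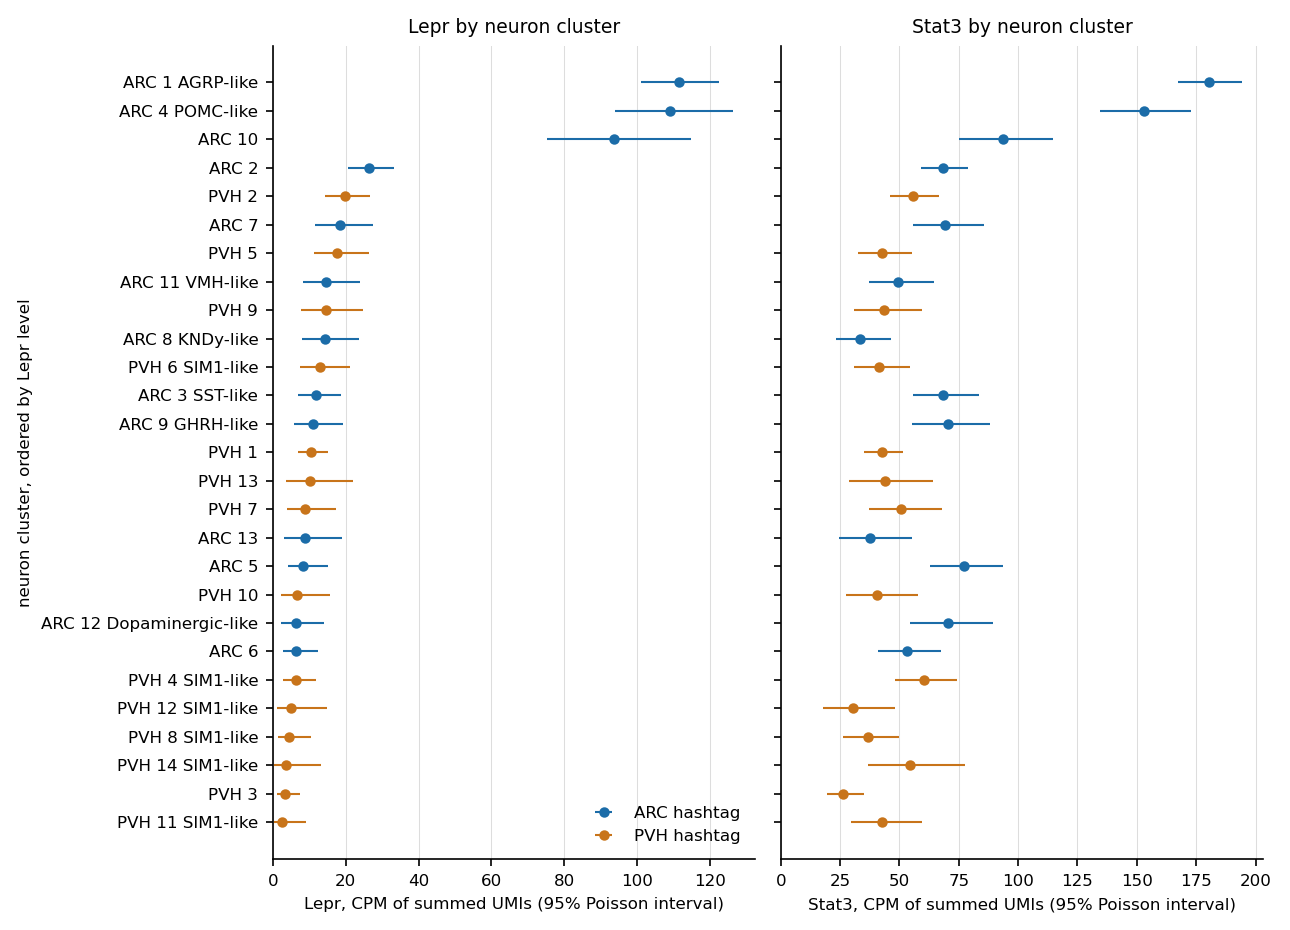
Levels of Lepr (left) and Stat3 (right) in the 27 neuron clusters, in CPM of summed UMIs on linear axes, ordered by Lepr. Points are clusters, blue for the ARC and orange for the PVH hashtag, and bars are exact 95% Poisson intervals. The AGRP-like, POMC-like and ARC 10 clusters stand at 93.5 to 111 CPM of Lepr and all others at 26.3 CPM or less, while Stat3 leads in the AGRP-like and POMC-like clusters.

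The AGRP-like, POMC-like and ARC 10 clusters held 704 of the 891 Lepr UMIs of ARC neurons, 79.0% (76.2 to 81.6), with 33.6% of all UMIs. The AGRP-like cluster alone held 48.4% of them. For Stat3 the share of the same 3 clusters was 56.6% and for Socs3 57.5%, and for the other 5 genes it lay between 35.0% and 40.7%. Most Lepr-positive nuclei held a single UMI. Of the 713 AGRP-like nuclei, 395 had no Lepr UMI, 227 had 1, 72 had 2 and 19 had 3 or more. In the POMC-like cluster 180 nuclei had none, 60 had 1, 29 had 2 and 16 had 3 or more, and in ARC cluster 10 the numbers were 144, 25, 13 and 12. Nuclei with 3 or more UMIs made up 2.66% of AGRP-like, 5.61% of POMC-like and 6.19% of cluster 10 nuclei at median depths of 5023, 5609 and 4650.5 UMIs. In the remaining 2545 ARC neurons 14 nuclei reached 3 UMIs, and in the 3074 PVH neurons 5 did.

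Leprot had too few UMIs to place its clusters in an order. Its levels ran from no UMI in PVH cluster 13 (97 nuclei, which allows up to 5.05 CPM) to 15.9 CPM (7.96 to 28.5) in ARC cluster 13. It stood at 9.30 CPM in the AGRP-like, 7.79 in the POMC-like and 6.17 CPM in ARC cluster 10, and no neighbours in its order of clusters had intervals apart. The correlation of the levels of Leprot and Lepr over the 27 clusters was 0.091, on log2(CPM + 1), as a description without a test.

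Stat3, the transcription factor of the pathway, was highest in the same 3 clusters as Lepr. It stood at 181 CPM (167 to 194) in the AGRP-like, 153 CPM (135 to 173) in the POMC-like and 93.5 CPM (75.3 to 115) in ARC cluster 10. The AGRP-like and POMC-like intervals overlap, and the POMC-like interval lies above that of cluster 10. The other ARC clusters ranged from 33.4 CPM in the KNDy-like to 77.2 CPM (62.9 to 93.8) in ARC cluster 5, whose interval overlaps that of cluster 10. The PVH clusters ranged from 26.4 CPM in PVH cluster 3 to 60.3 CPM in PVH cluster 4. UMIs of Stat3 were found in 57.4% of AGRP-like and 44.2% of POMC-like nuclei, against 19.2% of PVH neurons. Thinned to 1000 UMIs, the shares were 15.6% (13.0 to 18.4) in the AGRP-like, 8.77% (5.76 to 12.7) in the POMC-like and 8.76% (5.19 to 13.7) in ARC cluster 10. In this share, which ignores how many UMIs a nucleus holds, the POMC-like cluster did not stand above cluster 10. Before thinning, nuclei with 3 or more Stat3 UMIs made up 11.9% of POMC-like and 4.64% of cluster 10 nuclei. Their median depths were 5609 and 4650.5 UMIs.

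Socs3, the feedback inhibitor, was rare, with 87 UMIs in all ARC neurons and 31 in all PVH neurons. Its highest levels were 8.39 CPM (4.59 to 14.1) in the POMC-like and 7.75 CPM (5.23 to 11.1) in the AGRP-like cluster. The KNDy-like cluster stood at 6.67 CPM (2.68 to 13.7) on 7 UMIs, although Lepr was low there, and ARC cluster 10 at 6.17 CPM on 6 UMIs. No neighbours in the order were apart, and the lowest cluster, ARC cluster 6, had 1 UMI.

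The kinase Jak2 was highest in POMC-like nuclei, although no neighbours in its order of clusters had intervals apart. It stood at 81.5 CPM (68.4 to 96.4) there, against 43.1 CPM (36.8 to 50.2) in the AGRP-like and 41.1 CPM in ARC cluster 10. Its median over clusters was 44.3 CPM and its lowest level 30.8 CPM, in PVH cluster 14. The VMH-like cluster stood at 63.3 CPM and PVH cluster 12 at 67.4 CPM. The phosphatase Ptpn1 ranged from 72.5 CPM in the VMH-like to 144 CPM (132 to 156) in the AGRP-like cluster, and Ptpn2 from 30.5 CPM in the KNDy-like cluster to 63.7 CPM in PVH cluster 4. The adaptor Sh2b1 stood highest in ARC cluster 10, at 12.3 CPM (6.37 to 21.5) on 12 UMIs, and lowest in PVH cluster 13, at 1.68 CPM on 1 UMI. The highest cluster exceeded the median cluster by 10.7-fold for Lepr, 3.74-fold for Socs3, 3.55-fold for Stat3, 2.58-fold for Sh2b1, 2.49-fold for Leprot, 1.84-fold for Jak2, 1.46-fold for Ptpn1 and 1.32-fold for Ptpn2. The wide spreads of Socs3, Sh2b1 and Leprot rest on few UMIs per cluster.

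**Figure D2:**
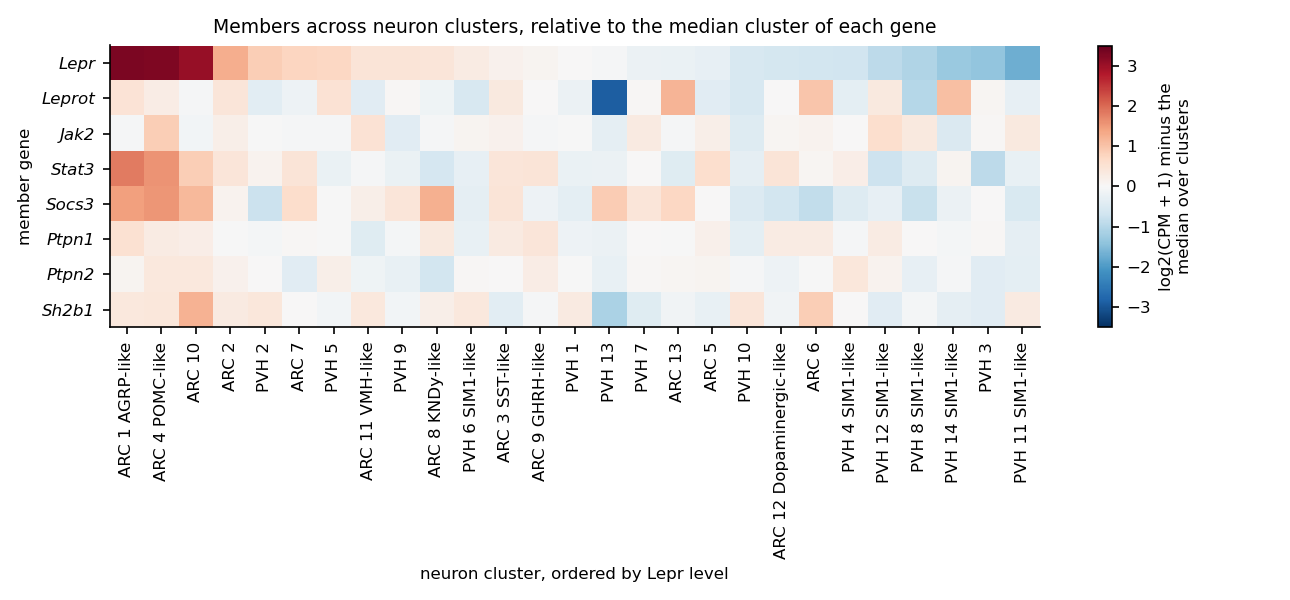
Levels of the 8 genes (rows) in the 27 neuron clusters (columns, ordered by Lepr), each as log2(CPM + 1) minus the median of that gene over the clusters. Red marks clusters above the gene's median and blue below it. The red block at the left covers Lepr, Stat3 and Socs3 in the AGRP-like, POMC-like and ARC 10 clusters, and the rows of Ptpn1 and Ptpn2 stay near 0.

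Levels of different genes are set side by side here per length, although whether UMIs scale with length in these data was not tested. In ARC neurons, per kb of gene span, Ptpn1 stood at 2.48 CPM, Stat3 at 1.75, Socs3 at 1.13, Ptpn2 at 0.851, Jak2 at 0.818, Sh2b1 at 0.721, Leprot at 0.695 and Lepr at 0.469 CPM. Per kb of exon the order was Ptpn1 at 21.2 CPM, Ptpn2 at 16.1, Stat3 at 9.99, Jak2 at 9.96, Lepr at 6.51, Leprot at 4.26, and Socs3 and Sh2b1 at 1.55 CPM each. Ptpn1 led on both scales and the place of the other genes depended on the length used. The sources used here do not say whether intronic reads were counted.

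In AGRP-like nuclei Lepr, Stat3 and Socs3 were higher than in the other 3024 ARC neurons and the other 5 genes differed by less than 1.5-fold. A gene is said to pass here when summed CPM differed by 1.5-fold or more with at least 30 UMIs over both groups, which is a rule of size and not a test. Lepr stood at 111 against 29.6 CPM, a log2 ratio of 1.91 (1.72 to 2.10). Stat3 stood at 181 against 73.8 CPM, a log2 ratio of 1.29 (1.15 to 1.43), and Socs3 at 7.75 against 3.67 CPM, a log2 ratio of 1.08 (0.39 to 1.74). Of all 15497 genes with enough UMIs, 6.96% were higher by this rule, and the median log2 ratio was 0.32 over the 8 genes and 0.00 over all genes. Ptpn1 was next at 0.38 (0.24 to 0.52), and Jak2 lay at -0.26 (-0.51 to -0.02). The comparison group includes the other Lepr-high clusters, and without the POMC-like cluster and cluster 10 the log2 ratio of Lepr was 2.94 (2.69 to 3.20).

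POMC-like nuclei were high in Jak2 as well as in Lepr, Stat3 and Socs3. Against the other 3452 ARC neurons, 4 of the 8 genes were higher in POMC-like nuclei, where 7.73% of all genes were. With nuclei thinned to 1000 UMIs only Lepr, at 1.13, and Jak2, at 0.66, passed, Stat3 lay at 0.23 and Socs3 had under 30 UMIs. These thinned ratios rest on a single random draw and few UMIs, and no interval is given for them. In that draw 25 of the 285 POMC-like nuclei held a Stat3 UMI, 22 a Lepr UMI and 19 a Jak2 UMI. In full, Lepr had a log2 ratio of 1.45 (1.21 to 1.69), Socs3 of 1.03 (0.09 to 1.87) on 14 UMIs, Jak2 of 0.79 (0.52 to 1.05) and Stat3 of 0.77 (0.57 to 0.96). The median over the 8 genes was 0.56 and over all genes -0.03. Without the AGRP-like cluster and cluster 10 in the comparison group, Lepr reached 2.91 (2.61 to 3.21) and Stat3 1.30. Compared directly, AGRP-like nuclei held less Jak2 than POMC-like nuclei, with a log2 ratio of -0.92 (-1.25 to -0.58), where 8.52% of all genes were lower. Lepr had a log2 ratio of 0.03 (-0.22 to 0.29) between the classes, and Stat3 of 0.24 (0.03 to 0.45). Thinned to 1000 UMIs, in the same draw and again without intervals, Stat3 reached 0.80 and passed along with Jak2 at -0.74, and Lepr lay at 0.41.

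ARC cluster 10 came next after the AGRP-like and POMC-like clusters in the CPM of both Lepr and Stat3. In the thinned shares it stood above the POMC-like cluster for Lepr, with intervals that overlap, and about level with it for Stat3. The comparison of cluster 10 with the other ARC neurons was chosen after the levels had been seen. Lepr had a log2 ratio of 1.11 (0.78 to 1.42) and Sh2b1 of 1.10 (0.10 to 1.97) on 12 UMIs, so 2 of the 8 genes were higher, where 7.91% of all genes were. Stat3 stood at 93.5 against 95.2 CPM, a log2 ratio of -0.03 (-0.35 to 0.28). That comparison group holds the AGRP-like and POMC-like nuclei, and the 2545 ARC neurons outside all 3 clusters stood at 62.1 CPM (57.9 to 66.6), below the interval of cluster 10.

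Classes with little Lepr were not low in all 8 genes. In the VMH-like cluster 5 genes were lower than in the other ARC neurons, where 21.5% of all genes were. These were Lepr at -1.70 (-2.52 to -0.99), Stat3 at -0.98 (-1.40 to -0.59), Ptpn1 at -0.73 (-1.07 to -0.40), and Leprot at -0.86 and Socs3 at -0.74, whose intervals include 0. The median over the 8 genes was -0.73 and over all genes -0.16. In the KNDy-like cluster Lepr at -1.74 (-2.58 to -1.01), Stat3 at -1.56 (-2.09 to -1.08) and Ptpn2 at -0.75 (-1.31 to -0.25) were lower, where 20.2% of all genes were, and Socs3 was higher at 0.61 (-0.75 to 1.72), where 10.1% of all genes were. In the dopaminergic-like cluster Lepr at -2.90 (-4.35 to -1.78) and Socs3, on 1 UMI, were lower, where 21.4% of all genes were, and Stat3 lay at -0.45 (-0.83 to -0.10). At Leiden resolution 1.2 this class held only 93 nuclei and more of the 8 genes passed, as given in the section on processing. The share of genes past 1.5-fold is large in these smaller clusters, so the counts of 5, 3 and 2 lower genes are read against it.

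**Figure D3:**
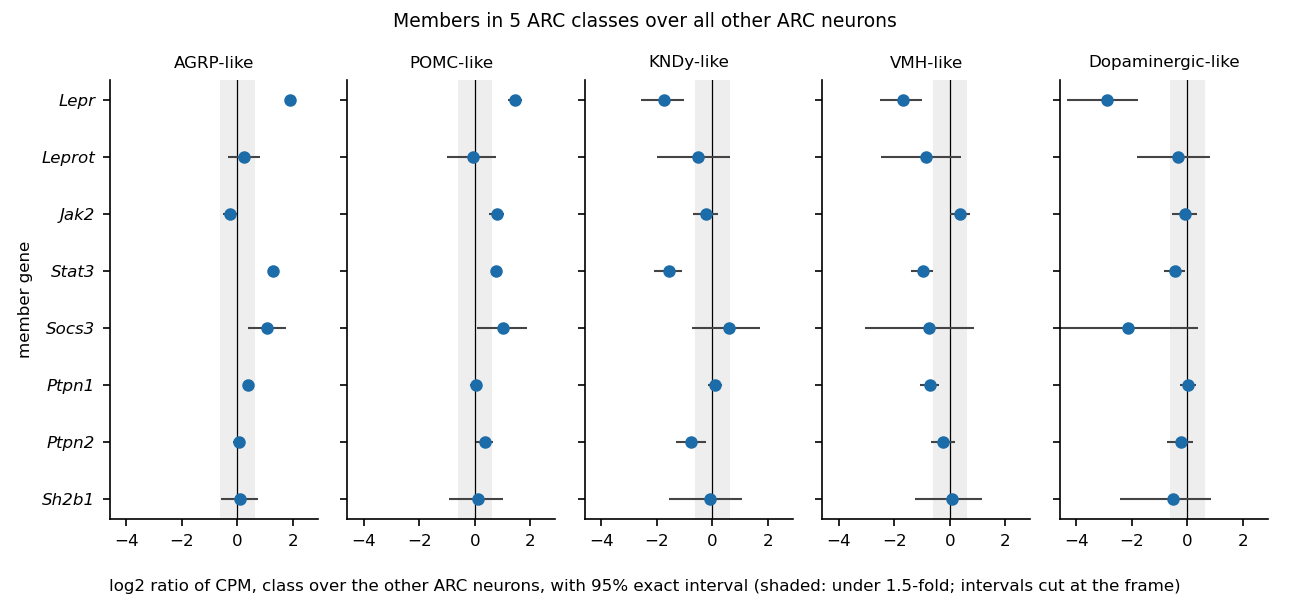
Log2 ratios of CPM of the 8 genes in 5 ARC classes over all other ARC neurons, with exact 95% intervals of the counts and the range under 1.5-fold shaded. Lepr lies at 1.91 and 1.45 in the AGRP-like and POMC-like classes and at -1.74, -1.70 and -2.90 in the KNDy-like, VMH-like and dopaminergic-like classes, Jak2 is past the shading in POMC-like nuclei, and intervals that reach the frame are cut.

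A split of the nuclei by transmitter transporter gave values that depended on its definition. Among ARC neurons, 552 nuclei had a UMI of the GABA transporter gene Slc32a1 and none of the glutamate transporter gene Slc17a6, and 536 the reverse. Of the 8 genes, 7 had enough UMIs and 0 passed, where 9.25% of all genes did in either direction. Lepr stood at 44.1 CPM in GABA and 35.8 CPM in glutamate nuclei, a log2 ratio of 0.30 (-0.08 to 0.68), and Stat3 at 99.0 and 75.6 CPM, a log2 ratio of 0.39 (0.13 to 0.65). With 2 UMIs of the transporter required, the log2 ratio of Lepr turned to -0.74 and that of Ptpn2 was 0.96, both past 1.5-fold. Ptpn2 at 0.79 passed after thinning, and Jak2 at -0.84 at hashtag quantile 0.99. A single UMI is a weak sign of the transmitter, since Slc32a1 stood at 14.4 CPM in the POMC-like and 27.6 CPM in the KNDy-like cluster, where Slc17a6 led, and Slc17a6 at 13.4 CPM in the AGRP-like cluster, where Slc32a1 led. Both sets of nuclei are therefore mixed.

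Lepr, Stat3 and Socs3 were lower in PVH-hashtag than in ARC-hashtag neurons. Lepr stood at 10.0 CPM (8.58 to 11.7) in PVH and 45.9 CPM (43.0 to 49.0) in ARC neurons, a log2 ratio of -2.19 (-2.44 to -1.95). Stat3 stood at 44.0 and 95.1 CPM, a log2 ratio of -1.11 (-1.24 to -0.99), and Socs3 at 1.85 and 4.48 CPM, a log2 ratio of -1.28 (-1.92 to -0.67). These 3 of 8 genes were lower where 5.97% of all genes were. The other 5 lay between -0.50 for Leprot and -0.09 for Ptpn2. At a stricter hashtag quantile of 0.99 Socs3 lay at -0.42 and did not pass. In sums over all neurons of a hashtag, fewer neurons of a type and less RNA per neuron cannot be told apart.

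**Figure D4:**
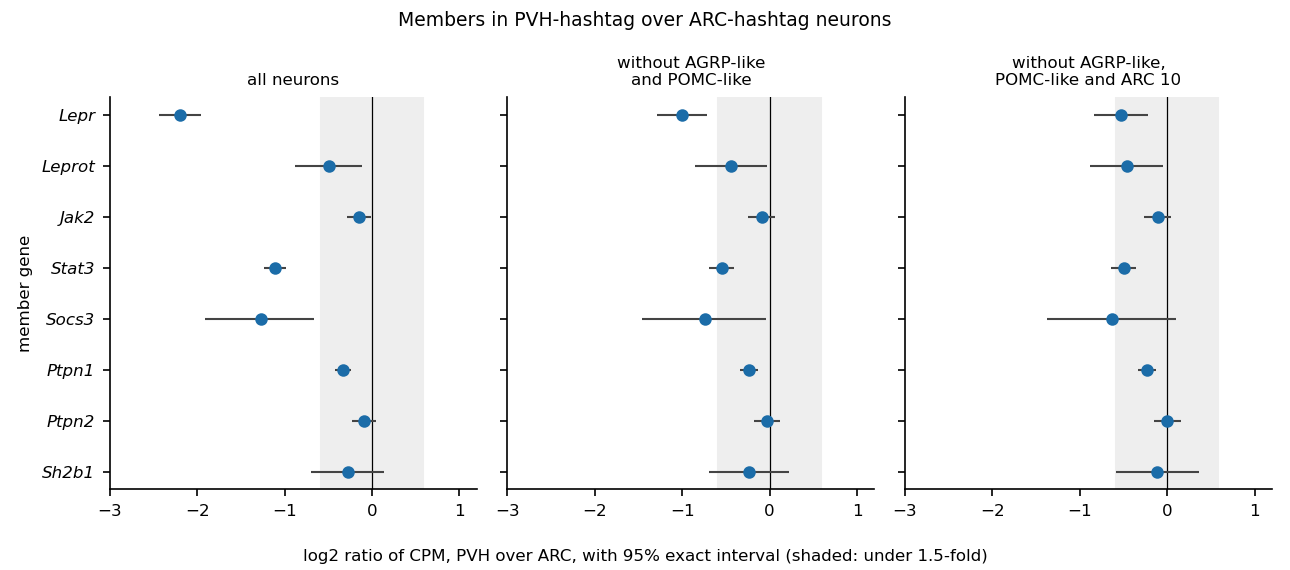
Log2 ratios of CPM of the 8 genes in PVH-hashtag over ARC-hashtag neurons with exact 95% intervals of the counts, for all neurons and without the Lepr-high ARC clusters, with the range under 1.5-fold shaded. Lepr moves from -2.19 to -0.998 and -0.53 as the AGRP-like and POMC-like clusters and then cluster 10 are left out.

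The comparison was repeated without the Lepr-high ARC clusters, a choice that by itself lowers Lepr on the ARC side, since no PVH cluster was left out in parallel. Without the AGRP-like and POMC-like nuclei the log2 ratio of Lepr was -0.998 (-1.28 to -0.72) and that of Stat3 -0.55 (-0.69 to -0.40), so that Lepr and Socs3 passed 1.5-fold, where 5.13% of all genes were lower. Without cluster 10 as well, Lepr stood at 10.0 CPM in PVH and 14.5 CPM in ARC neurons, a log2 ratio of -0.53 (-0.84 to -0.22), and Socs3 alone, at -0.63 (-1.37 to 0.10), passed, where 5.15% of all genes were lower. Ptpn2 then lay at 0.00 (-0.15 to 0.16). When nuclei of both hashtags were clustered together, the AGRP-like cluster held 767 ARC and 11 PVH nuclei and the POMC-like cluster 283 and 5. In the 4 joint clusters with at least 50 nuclei of each hashtag, Lepr was lower in PVH nuclei in 3, in 2 of them with an interval below 0, and Stat3 in 4, again in 2 with an interval below 0. For both genes these 2 were joint clusters 2 and 4, which have no class name. Lepr in joint cluster 4 rests on 5 ARC and 6 PVH UMIs. In the VMH-like and dopaminergic-like joint clusters Lepr lay at -0.08 (-1.90 to 1.45) and 0.37 (-1.13 to 1.78). Without the clusters rich in oligodendrocyte markers, ARC 2 and PVH 2, the log2 ratio of Lepr over all neurons was -2.51 (-2.79 to -2.24).

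Within the PVH hashtag, the 978 SIM1-like neurons, which carry Sim1 and other markers of PVH neurons, held less Lepr in sum than the other 2096 neurons. Lepr stood at 6.45 and 11.9 CPM, a log2 ratio of -0.89 (-1.45 to -0.35). The 6 SIM1-like clusters were not alike, since PVH cluster 6 held 16 of their 37 Lepr UMIs at 13.0 CPM (7.42 to 21.1) and the others stood at 2.51 to 6.23 CPM. The comparison group holds PVH cluster 10, which has Sim1 at 207 CPM and Lepr at 6.75 CPM but too few passing markers for the name. Socs3 lay at -0.59 (-1.96 to 0.63) on 8 UMIs in SIM1-like nuclei, so that 2 of 8 genes were lower, where 8.95% of all genes were. Stat3 lay at 0.07 (-0.15 to 0.29), Jak2 at 0.22 (0.01 to 0.44) and Ptpn1 at 0.02 (-0.14 to 0.17). Under another scaling (median of ratios) the Socs3 ratio was -0.56 and Lepr alone passed.

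Nuclei with a Lepr UMI held more Stat3 and Socs3 than nuclei without. The 615 Lepr-positive ARC neurons stood at 164 CPM of Stat3 and the 3122 Lepr-negative neurons at 79.9 CPM, a log2 ratio of 1.04 (0.89 to 1.18). Socs3 stood at 8.53 and 3.59 CPM, a log2 ratio of 1.25 (0.56 to 1.91). These were 2 of the 7 other genes, where 4.89% of all genes were higher. Ptpn2 lay at 0.40 (0.18 to 0.62), Jak2 at 0.38 (0.15 to 0.60) and Leprot at -0.03 (-0.67 to 0.57). The Lepr-positive nuclei were also deeper, with a median of 5289 against 4755 UMIs. With counts thinned to 1000 UMIs per nucleus the log2 ratio of Stat3 was 1.32. The groups were still set by the Lepr UMIs before thinning, so depth still enters the split.

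Within the AGRP-like class no such difference was seen, but there the split by a Lepr UMI says little. Of its 713 nuclei 395 had no Lepr UMI and 227 had 1, so a nucleus without a UMI may still express Lepr. The split therefore cannot show whether Stat3 follows Lepr within this class. There Stat3 stood at 188 CPM in Lepr-positive and 174 CPM in Lepr-negative nuclei, a log2 ratio of 0.11 (-0.11 to 0.33), and none of the 6 genes with enough UMIs passed, where 6.13% of all genes did in either direction. In the POMC-like class Jak2 at 0.82 (0.31 to 1.33) and Ptpn2 at 0.60 (0.02 to 1.18) passed among the 4 genes with enough UMIs, where 5.04% of all genes were higher, and Stat3 lay at 0.28 (-0.09 to 0.65). In the remaining ARC neurons, cluster 10 included, Stat3 stood at 119 CPM in the 192 Lepr-positive and 59.8 CPM in the 2547 Lepr-negative nuclei, a log2 ratio of 1.00 (0.72 to 1.27). Socs3 lay at 1.46 (0.14 to 2.60) on 8 UMIs in the positive nuclei, and 6.29% of all genes were higher there. The difference between these groups of nuclei in the Stat3 ratio was not tested, and the intervals of the AGRP-like class and of the remaining neurons do not overlap.

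**Figure D5:**
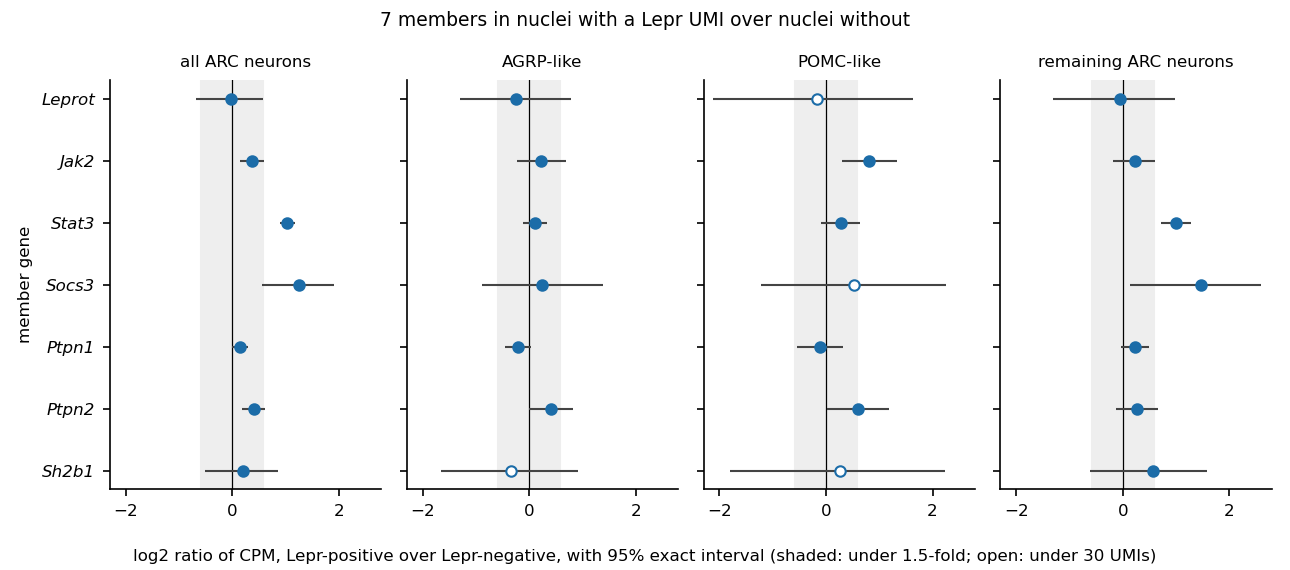
Log2 ratios of CPM of the 7 other genes in nuclei with a Lepr UMI over nuclei without, in all ARC neurons and in 3 subsets, with exact 95% intervals of the counts. Open points rest on fewer than 30 UMIs and the shading marks the range under 1.5-fold. Stat3 lies at 1.04 in all ARC neurons, at 0.11 and 0.28 within the AGRP-like and POMC-like classes and at 1.00 in the remaining neurons.

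Across the 27 clusters, the gene most like Lepr among 14094 genes was Nlrc5, an activator of MHC class I genes, with a Pearson correlation of log2(CPM + 1) of 0.793. Stat3 was second at 0.756, and Fli1, an ETS transcription factor gene, at 0.739 and Socs3 at 0.712 were also among the most alike. In turn, Lepr was the most like gene for both Stat3 and Socs3, while Stat3 with Socs3 reached 0.460, less than Stat3 with Ptpn2 (0.523) or Ptpn1 (0.491). The correlation with Lepr was 0.462 for Sh2b1, 0.428 for Ptpn2, 0.373 for Ptpn1 and 0.137 for Jak2. The gene most like Leprot was Isoc2b (0.833), that most like Jak2 was Kcnd1 (0.734), that most like Ptpn1 was Csnk1a1 (0.848), that most like Ptpn2 was Dlk1 (0.678) and that most like Sh2b1 was Acly (0.720). The clusters share 1 library, 3 clusters carry most of the variation of Lepr, and these correlations are descriptions.

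A list of 50 other genes of the leptin pathway, which took part in the clustering, was followed in the same comparisons. Between hashtags 46 of them had enough UMIs, 13 were lower in PVH neurons and 0 higher, where 5.97% and 6.81% of all genes were, and their median log2 ratio was -0.15 against -0.04 over all genes. The largest were the kinase gene Jak3 at -1.41 (-2.43 to -0.48), the transcription factor gene Foxo1 at -1.13, the adaptor gene Irs4 at -1.07, Stat5a with 5.44 against 10.9 CPM, Socs2 at -0.94 and the neuropeptide gene Pomc at -0.86. By role, 4 of 7 kinases and STATs were lower, 2 of 6 cytokine receptors, 2 of 16 genes of the adaptor and PI3K arm, 2 of 10 negative regulators and 3 of 7 leptin-regulated transcripts. Without the AGRP-like and POMC-like nuclei 5 of 46 were lower, where 5.13% of all genes were, among them 2 kinases and STATs and 0 negative regulators or leptin-regulated transcripts, and 5 were again lower without cluster 10 as well.

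In AGRP-like nuclei 11 of 45 genes of the list were higher and 8 lower, where 6.96% and 11.9% of all genes were, and their median log2 ratio was 0.06. The prolactin receptor gene Prlr stood at 13.2 against 138 CPM in the other ARC neurons, a log2 ratio of -3.39 (-3.82 to -2.99), and the growth hormone receptor gene Ghr at 1313 against 208 CPM, a log2 ratio of 2.66 (2.59 to 2.72). Pik3r1, a regulatory subunit of PI3K, lay at -1.97, Npy, itself a marker of the class, at 1.74, Serpina3n at 1.51 and Irs4 at 1.48. In POMC-like nuclei 6 of 45 were higher and 5 lower, where 7.73% and 14.8% of all genes were, led by Pomc at 2.93, Foxo1 at -1.86 (-2.75 to -1.11), Fos at 1.80, Cartpt at 1.43, Serpina3n at 0.94 and Socs2 at 0.94. Pomc and Cartpt are markers of that class. Foxo1, whose protein counters STAT3 at the Pomc and Agrp genes, stood at 54.0 CPM in AGRP-like and 8.39 CPM in POMC-like nuclei.

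In cluster 10, 3 of 45 genes of the list were higher and 12 lower, where 7.91% and 18.6% of all genes were. Prlr lay at -2.03 (-2.62 to -1.50) and Ghr at -1.99 (-2.28 to -1.72), so that this Lepr-high cluster was low in both related receptors against all other ARC neurons. Those neurons include the AGRP-like nuclei, where Ghr is high, and the Ghr ratio without them is not given here. Socs1 at -1.85, Fos at -1.76, Foxo1 at -1.14 and Jak3 at -1.04 followed, with 1 or 2 UMIs in the cluster for Socs1, Fos and Jak3. In the VMH-like cluster 2 of 45 genes of the list were higher and 13 lower, where 9.25% and 21.5% of all genes were. In the KNDy-like cluster 7 were higher and 13 lower, where 10.1% and 20.2% of all genes were. In the dopaminergic-like cluster 4 were higher and 7 lower, where 9.02% and 21.4% of all genes were. SIM1-like neurons had 7 of 44 genes higher and 1 lower, where 6.47% and 8.95% of all genes were. In Lepr-positive against Lepr-negative ARC neurons 9 of 45 were higher and 4 lower, where 4.89% and 7.71% of all genes were, with Prlr at -1.23 (-1.46 to -1.02), Serpina3n at 1.21 (0.62 to 1.78), Ghr with 798 against 347 CPM, Cish at 1.01, Irs4 at 0.96 and Socs2 at 0.84. Within the AGRP-like class 0 of 40 passed in either direction, where 6.13% of all genes did. In the POMC-like class 1 of 31 was higher and 4 lower, where 5.04% and 8.43% of all genes were, and in the remaining ARC neurons 3 of 44 were higher and 3 lower, where 6.29% and 9.98% of all genes were. The low Prlr and high Ghr of the Lepr-positive nuclei have the direction they have in the AGRP-like class, which holds 318 of the 615 positive nuclei.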

How the data were processed

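Counts of UMIs per gene and barcode were deposited by the authors, unnormalized, for 1 pooled library, with a second library of hashtag counts. Per the labels they were made with Cell Ranger 5.0 on mm10 (the matrix header names 4.0.0) and analysed with Seurat 4. The matrix lists 11409 barcodes, each once. Nuclei with over 800 and under 5000 genes, at most 12000 counts and at most 1% mitochondrial counts, and genes in at least 3 nuclei, were kept. HTODemux (positive quantile 0.8) called 3767 ARC and 3074 PVH nuclei, 944 with both hashtags and 2385 with none. Nuclei with both were left out, and no other doublet caller was run, so doublets within a hashtag remain. Each hashtag was log-normalized to 10000 and clustered alone in Seurat 5.3.0 (R 4.3.3, leidenbase 0.1.32) on 2000 variable genes without the 8 genes, 30 components, 20 neighbours and Leiden resolution 0.55.

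A class name needed 3 or more of its markers at 1.5-fold over the remaining neurons, with at least 3 UMIs per marker and 10 for the first, with no other class passing and fewer than 3 passing markers of any non-neuronal list. These thresholds were set after the data were seen, and the genes and lists were chosen with earlier results of these data known. Intervals are exact (Poisson for CPM, Clopper-Pearson for shares, conditional binomial for ratios; Python 3.11.15, scipy 1.17.1), and a count of 0 was given the limit of 3 counts. All 8 genes are named. Of the pathway list, at most 6 genes that passed are named per comparison, by size of fold, and likeness names the top 5 genes for Lepr and the top 1 for each other gene, among genes with at least 100 UMIs. A gene that this rule names is not reported here. The calculation was tested on simulated data. Alternatives were another scaling, means over nuclei, thinning to 1000 UMIs (1 shallower nucleus left out), other resolutions and filters, a stricter hashtag quantile, joint clustering and, added later, comparisons without some clusters.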

Additional observations from a re-analysis of the deposited data

Results flagged for a closer look

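The 8 genes were also present in barcodes that entered no comparison, above the level that a count of 0 allows there (0.327, 0.572 and 0.980 CPM in the order of the groups that follow). In the 2385 nuclei without a hashtag call (median 3926 UMIs) the levels were 18.3 CPM for Lepr, 8.17 for Leprot, 43.0 for Jak2, 55.2 for Stat3, 2.61 for Socs3, 102 for Ptpn1, 47.8 for Ptpn2 and 5.34 CPM for Sh2b1. In the 944 nuclei with both hashtags (median 5216 UMIs) they were 24.6 CPM for Lepr, 8.58 for Leprot, 46.9 for Jak2, 62.9 for Stat3, 4.57 for Socs3, 104 for Ptpn1, 45.9 for Ptpn2 and 8.77 CPM for Sh2b1. In the 1239 barcodes that failed the filters (median 652 UMIs) they were 30.7 CPM for Lepr, 11.8 for Leprot, 42.5 for Jak2, 63.1 for Stat3, 6.21 for Socs3, 91.2 for Ptpn1, 44.4 for Ptpn2 and 7.19 CPM for Sh2b1. Lepr and Stat3 lay between the PVH and the ARC neurons in all 3 groups of barcodes.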

How the results depend on the processing

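No value that passed 1.5-fold in the main run changed sign under any alternative run. Of the alternative values, 154 main values (counts of genes past 1.5-fold and Lepr ratios) stayed within the interval of the main value, or within 1.5 times for a count, and 24 moved, and of single genes 595 stayed and 34 moved. Thinned to 1000 UMIs, the log2 ratio of Lepr was 2.14 in AGRP-like, 1.13 in POMC-like and -1.60 in SIM1-like nuclei and 0.41 between AGRP-like and POMC-like nuclei. The thinned counts of genes past 1.5-fold were 2 for POMC-like, 2 for AGRP-like against POMC-like, 1 for SIM1-like and 1 for GABA nuclei. No share of all genes is given here for the counts under thinning or other processing settings, so they are not read against one. At hashtag quantile 0.99, which kept 1229 ARC and 407 PVH nuclei and named no AGRP-like or VMH-like cluster, Lepr was 1.70 in POMC-like and -1.49 in SIM1-like nuclei, and the counts were 1 for SIM1-like and 1 for GABA nuclei. With 2 UMIs of the transporter required, Lepr was -0.74 in GABA against glutamate nuclei and 2 genes passed, so the direction of the Lepr difference depends on the definition. The SIM1-like count was 1 under median-of-ratios scaling, 1 with means over nuclei and 1 without upper limits. The dopaminergic-like count was 4 at resolution 1.2, where that class held 93 nuclei, so the main share of all genes does not apply to it. In comparisons chosen after seeing the data, Lepr in PVH over ARC neurons was -0.998 without AGRP-like and POMC-like nuclei, -0.53 without cluster 10 as well, with 1 gene past 1.5-fold, and -2.51 without ARC cluster 2 and PVH cluster 2. Against ARC neurons outside the Lepr-high clusters, Lepr was 2.94 in AGRP-like and 2.91 in POMC-like nuclei. The cause of the other changes was not tested. With a minimum of 100 UMIs, the share of all genes past 1.5-fold was 9.73% in SIM1-like, 4.68% in GABA and 6.98% in Lepr-positive nuclei, against 15.4%, 9.25% and 12.6% with 30 UMIs. No paired analysis was possible because there is 1 pooled library and no replicate. Socs3, Leprot and Sh2b1 had at most 36 UMIs in any cluster, so differences in them between clusters were mostly not detectable at this depth.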

Other observations

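At Leiden resolution 1.2 the AGRP-like class held 681 nuclei, against 713 at the main resolution. It was made of a cluster of 344 nuclei, led by Trim6, and a cluster of 337 nuclei, led by Fgfr4. The clusters that took up the other nuclei are not given here. Stat3 stood at 222 CPM (201 to 244) in the first and 155 CPM (137 to 174) in the second, with intervals apart, while Lepr stood at 122 CPM (107 to 139) and 102 CPM (87.8 to 119), with intervals that overlap. A further cluster of 69 nuclei, led by Ebf1, Pth2r and Dach2 and without a class name, held Lepr at 70.9 CPM (49.6 to 98.1), with UMIs in 29 of its nuclei, and Stat3 at 102 CPM (76.4 to 134). Its median depth was 7129 UMIs against 4833 in all ARC neurons.

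Bnc2, highest in ARC cluster 2 among the ARC neuron clusters, had a UMI in 17 ARC neurons. These held 15 Lepr UMIs in 4 nuclei, 146 CPM (81.9 to 241), and 14 Stat3 UMIs in 9 nuclei, 137 CPM (74.7 to 229). No Socs3 UMI was seen in them, which at this depth allows up to 36.0 CPM by the exact interval.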
